A study of Mus musculus with 6 samples.

Results

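The miRNAs described here are those cut from the hairpins miR-10a, miR-10b, miR-196a-1, miR-196a-2, miR-196b and miR-615, all of which lie inside the Hox gene clusters of the mouse. They were chosen by name and genomic position, taking either arm of each hairpin, which gave 11 mature miRNAs of the 778 in the table. They are mmu-miR-10a-5p, mmu-miR-10a-3p, mmu-miR-10b-5p, mmu-miR-10b-3p, mmu-miR-196a-5p, mmu-miR-196a-1-3p, mmu-miR-196a-2-3p, mmu-miR-196b-5p, mmu-miR-196b-3p, mmu-miR-615-5p and mmu-miR-615-3p. Small RNA was sequenced from mesangial cells, which lie between the capillaries of the kidney glomerulus and are contractile, grown from mice as primary cultures. The Control group held 3 samples without added cytokine, and the TGF-b1 group held 3 samples given transforming growth factor beta 1 at 10 ng/ml for 72 h. Every sample, treated or not, was kept in 25.5 mM glucose with 20% foetal bovine serum and used between passages 3 and 6, so the Control cells were also in high glucose. Mouse strain, age and any vehicle given to the Control cells are not given in the sources used here, and neither is whether the samples came from separate cultures. The p-values therefore measure only the spread between these samples.

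MicroRNAs are cut from a hairpin transcript in the nucleus and the cytoplasm, and 1 strand of the resulting duplex is usually kept by an Argonaute protein while the other is mostly degraded. The kept strand finds target mRNAs chiefly through its seed, bases 2 to 8 from the 5′ end. Hox genes encode the transcription factors that give cells their position along the body axis, and the miR-10 and miR-196 hairpins sit between Hox genes at matching places in several clusters. Cells taken from an adult organ usually keep the Hox pattern of the body level they came from. TGF-b1 is a cytokine that drives matrix production by mesangial cells in kidney fibrosis.

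The mature sequences are shown to make the families visible, since strands that share a seed can pair with the same seed sites in mRNAs. Each is given 5′ to 3′ from RefSeq (GRCm38.p6) with the seed in capitals.
mmu-miR-10a-5p: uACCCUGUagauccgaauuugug
mmu-miR-10b-5p: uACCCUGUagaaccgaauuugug
mmu-miR-196a-5p: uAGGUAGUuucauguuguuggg
mmu-miR-196b-5p: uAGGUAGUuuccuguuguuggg
mmu-miR-10a-3p: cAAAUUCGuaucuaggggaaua
mmu-miR-10b-3p: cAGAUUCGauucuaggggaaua
mmu-miR-196a-1-3p: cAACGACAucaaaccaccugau
mmu-miR-196a-2-3p: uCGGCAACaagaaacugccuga
mmu-miR-196b-3p: uCGACAGCacgacacugccuuc
mmu-miR-615-5p: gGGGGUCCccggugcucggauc
mmu-miR-615-3p: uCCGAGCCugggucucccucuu

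The 5p strands of miR-10a and miR-10b carry 1 seed, ACCCUGU, and no other mouse miRNA in the RefSeq table holds it. Counted from the 5′ end, they differ at 1 of 23 bases, U12A from miR-10a-5p to miR-10b-5p. The 5p strands of miR-196a and miR-196b likewise share AGGUAGU with each other alone and differ only by A12C. The 3p strands are less alike: miR-10a-3p and miR-10b-3p differ at 3 bases, A3G, U9A and A10U, the first of them inside the seed. Compared base by base from the 5′ end with no shift allowed, the miR-196a-1-3p and miR-196a-2-3p strands differ at 17 of 22 bases. Part of that count is a shift in register, since both hold CCUGA near the 3′ end, 1 base out of step. Their 3p sequences still tell the 2 miR-196a hairpins apart although their 5p strands are identical. Neither arm of miR-615 shares its seed with another miRNA of the table. The sources used here do not say how reads fitting more than 1 miRNA were handled, so the split between 5p strands that differ by 1 base is uncertain.

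The hairpins that carry the 3p differences are shown with both mature strands in capitals, again from RefSeq (GRCm38.p6).
Mir10a: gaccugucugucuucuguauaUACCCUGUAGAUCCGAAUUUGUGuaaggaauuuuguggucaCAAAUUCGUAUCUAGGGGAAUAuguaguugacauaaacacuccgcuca
Mir10b: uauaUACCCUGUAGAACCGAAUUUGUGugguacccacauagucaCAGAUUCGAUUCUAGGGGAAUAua
Mir196a-1: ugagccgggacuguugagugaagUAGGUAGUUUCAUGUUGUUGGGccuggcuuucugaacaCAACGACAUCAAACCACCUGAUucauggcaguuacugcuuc
Mir196a-2: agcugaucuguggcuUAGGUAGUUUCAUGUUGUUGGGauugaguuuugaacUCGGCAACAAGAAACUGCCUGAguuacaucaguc
Mir196b: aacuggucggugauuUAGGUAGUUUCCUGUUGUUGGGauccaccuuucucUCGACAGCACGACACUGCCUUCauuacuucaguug

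All positions are on NCBIM37 with GENCODE vM1 gene models, and every mature sequence was found inside its annotated hairpin. In HoxB, Mir10a lies at chr11:96178479-96178588 on the plus strand, in an exon of a Hoxb4 transcript. In the same cluster, Mir196a-1 lies at chr11:96126478-96126579 on the plus strand, in no annotated gene, 6192 bp from Hoxb9. In HoxC, Mir196a-2 lies at chr15:102803772-102803881 (plus strand), in an intron of the noncoding gene Gm20398, 1448 bp from Hoxc10. The other HoxC hairpin, Mir615, lies at chr15:102845341-102845432 on the plus strand, in introns of Hoxc5 and Gm20398. Mir196b is the HoxA hairpin, at chr6:52180080-52180164 on the minus strand, in an exon of a Hoxa9 transcript and 1032 bp from Hoxa10. In HoxD, Mir10b lies at chr2:74564127-74564194 on the plus strand, in introns of Hoxd3 and Hoxd4. The map of the clusters shows that the miR-10 hairpins sit by paralogous genes of group 4 and the miR-196 hairpins near gene 9. In HoxA and HoxC gene 10 is also close, and HoxB has no annotated gene 10.

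**Figure D1:**
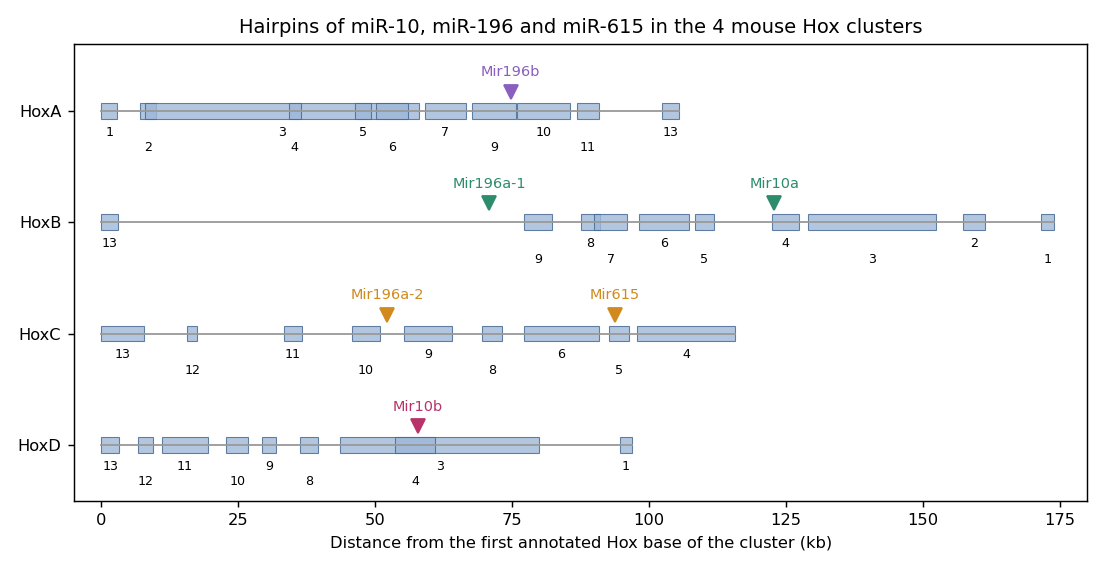
Position of the 6 hairpins (triangles) among the annotated Hox genes (boxes, numbered as in the gene names) of the 4 clusters, in kb from the first annotated Hox base of each cluster in genome order. Mir10a and Mir10b sit by Hoxb4 and Hoxd4, the miR-196 hairpins near gene 9 (and gene 10 in HoxA and HoxC), and Mir615 in Hoxc5.

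Library totals lay between 16478281 and 17623671 reads in Control and between 17086815 and 20169254 in TGF-b1. The 778 miRNAs together held 79.6% ± 0.142 (SD) of the reads of the 3 Control libraries and 72.3% ± 0.752 (SD) of those of the 3 TGF-b1 libraries. The median log2 change of the 408 miRNAs tested was -0.17 when values were scaled to the library total, against -0.07 with TMM and -0.02 with median-of-ratios scaling. Mesenchymal marker miRNAs, 5 of 5 listed, summed to 2587 to 2962 RPM in Control and 2609 to 3075 in TGF-b1. Most of that sum was miR-143-3p, at a mean of 2029 and 2052 RPM, while the means of miR-145-5p were 127.4 and 238.6 RPM, those of miR-199a-3p 601.3 and 484.0 RPM, and those of miR-199a-5p 14.0 and 6.93 RPM. The epithelial markers of the miR-200 family, 5 of 5 listed, summed to 22.2 to 25.4 RPM in Control and 1.67 to 2.53 in TGF-b1, with miR-200c-3p and miR-141-3p at or near 0 in both groups. Blood markers, of which 3 of 5 were found in the table, stayed at or below 0.659 RPM and both endothelial markers at or below 0.298 RPM in every sample. The neuron list summed to 2.06 to 2.40 RPM in Control and 1.40 to 1.93 RPM in TGF-b1, and the liver marker miR-122-5p had 24.2 to 27.3 RPM in Control and 13.1 to 13.9 RPM in TGF-b1. The muscle list summed to 3285 to 3646 RPM, nearly all of it miR-206-3p, while miR-133a-3p stayed near 0. The part of the epithelial markers and of miR-122-5p in the changes given below was not tested.

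The Hox cluster miRNAs were dominated by miR-10a-5p, from the HoxB cluster. Levels are in RPM, reads per 1000000 reads of the library total. The level of miR-10a-5p was 13148, 13179 and 12149 RPM in the Control samples and 11579, 11931 and 11357 RPM in the TGF-b1 samples, from 194054 to 233542 reads per sample. It ranked between 7th and 9th of the 778 miRNAs in every sample. All 11 together made up 13356 ± 624 RPM in Control and 11917 ± 272 RPM in TGF-b1 (SD over 3 samples each), which is 1.34% and 1.19% of the library. Of these sums miR-10a-5p alone gave 96.0% and 97.5%. Per 1000000 reads of the listed miRNAs rather than of the library, the sums were 16777 ± 781 and 16483 ± 276, and the groups overlapped.

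In Control the levels fell in the order miR-10a-5p, miR-10b-5p, miR-196a-5p, miR-196b-5p, miR-10a-3p, miR-196a-1-3p, miR-615-5p, miR-196b-3p, miR-615-3p, miR-196a-2-3p and miR-10b-3p. Of these neighbours only miR-196a-1-3p and miR-615-5p overlapped in Control. The order of the means was the same in TGF-b1, where miR-196b-5p overlapped with miR-10a-3p, miR-10a-3p with miR-196a-1-3p, and miR-615-5p with miR-196b-3p. The levels of different miRNAs also carry the ligation and amplification bias of each sequence, which these data do not measure.

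**Figure D2:**
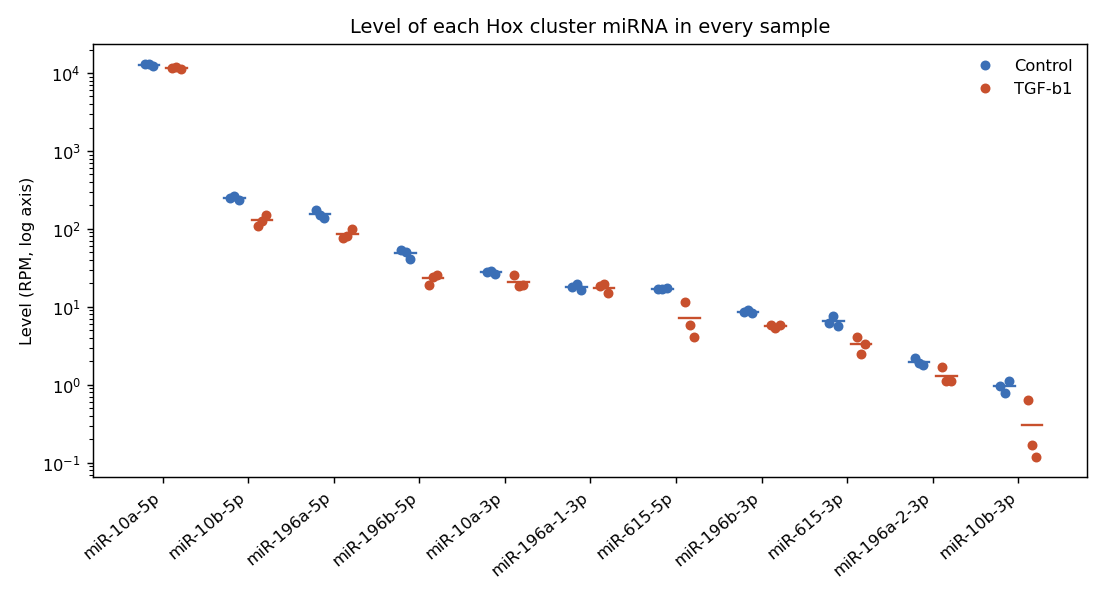
Level of each of the 11 Hox cluster miRNAs in every sample, in RPM on a log axis, with the 3 Control samples in blue, the 3 TGF-b1 samples in orange and a bar at each group mean. The level of miR-10a-5p lies between 11357 and 13179 in all samples, miR-10b-5p, miR-196a-5p and miR-196b-5p separate by group, and miR-196a-1-3p does not.

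The comparison of TGF-b1 with Control asked which of these miRNAs changed in abundance with the cytokine. All 11 passed the filter on low reads. With limma on log2(RPM + 1) and Benjamini-Hochberg adjustment over 408 miRNAs, 8 of 11 were lower in TGF-b1 at an adjusted p under 0.05, where 31.9% of all tested miRNAs were lower. These include miR-10b-3p, which passed the filter only through the Control samples, where it is high, and leaving it aside 7 of 10 were lower with a median log2 change of -0.68. None was higher, at an adjusted or an unadjusted p under 0.05 and with limma, edgeR or DESeq2. Of all tested miRNAs, 17.4% were higher at a limma adjusted p under 0.05. At an unadjusted limma p under 0.05, 78 of the 408 were higher, and DESeq2 called 75 higher after adjustment. Over all tested miRNAs 130 were lower and 71 higher, a split that became 91 lower and 97 higher with median-of-ratios scaling, 105 and 83 with TMM, and 101 and 85 with edgeR and TMM on the recovered reads. In RPM of the library total, every TGF-b1 sample lay below every Control sample in 10 of 11. Without miR-10b-3p this was 9 of 10, against 36.0% of all tested miRNAs. Per read of the listed miRNAs, the groups overlapped for miR-10a-5p, miR-10a-3p and miR-196a-2-3p. The share of all tested miRNAs without overlap was not counted on that scale. Past a log2 change of -1 there were 2, miR-196b-5p and miR-615-5p, against 7.84% of all tested. Under TMM, median-of-ratios, upper-quartile and row-sum scaling and with DESeq2 only miR-615-5p lay past it, and with a pseudocount of 10 neither did. The median log2 change of the 11 was -0.60, and that of all tested was -0.17. The 11 values are not independent, since arms of 1 hairpin and the near-identical 5p strands share a source. Under TMM scaling 7 of 11 were lower, or 6 without miR-10b-3p, against 25.7% of all tested. Under median-of-ratios scaling 6 were lower, or 5 without miR-10b-3p, against 22.3%. With edgeR and TMM 6 were lower against 24.8% and with DESeq2 5 against 17.6%, miR-10b-3p not among them. The calls of miR-10b-5p, miR-196a-5p, miR-196b-5p, miR-615-5p and miR-615-3p held under every other scaling, filter, pseudocount and test tried and with every sample left out in turn, leaving aside the added limit on the log2 change.

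Among the abundant 5p strands, miR-10b-5p, the HoxD partner of miR-10a-5p with the same seed, fell to 52.0% of its Control level. Its level was 248.4, 262.4 and 231.7 RPM in Control and 110.1, 125.1 and 150.5 RPM in TGF-b1. Every TGF-b1 sample lay well below the lowest Control sample. The means were 247.5 ± 15.4 and 128.6 ± 20.4 RPM (SD, n = 3 each), and the log2 change was -0.95 ± 0.13 (SE) with a limma adjusted p of 0.00091.

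The 5p strands of miR-196 fell as well. MiR-196a-5p, known in mouse for cleaving the Hoxb8 mRNA, had 172.3, 152.0 and 136.4 RPM in Control and 76.3, 81.4 and 100.4 RPM in TGF-b1. The groups did not overlap, and the log2 change was -0.83 ± 0.14 (SE; limma adjusted p = 0.00228). MiR-196b-5p, from the HoxA cluster next to Hoxa9, had 53.8, 50.7 and 41.6 RPM in Control and 19.1, 24.4 and 25.9 RPM in TGF-b1. Again the groups did not overlap, and the change was -1.05 ± 0.16 (SE) on the log2 scale, with a limma adjusted p of 0.00142. For miR-10b-5p, miR-196a-5p and miR-196b-5p alike, TGF-b1 replicate 1 was the lowest sample.

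The change of miR-10a-5p was small and depended on the scaling. Scaled to the library total, its log2 change was -0.14 ± 0.05 (SE; limma adjusted p = 0.0449), with a 95% interval of -0.26 to -0.03, and the groups did not overlap. The median of all tested miRNAs was -0.17. The sign turned with TMM (0.01), with median-of-ratios scaling (0.07) and with DESeq2 (0.08), and the call was lost when any 1 sample except Control replicate 3 was left out, with adjusted p between 0.0685 and 0.133. So 2 strands with the same seed, miR-10a-5p and miR-10b-5p, had log2 changes of -0.14 and -0.95.

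Both arms of miR-615, the hairpin in the Hoxc5 intron, were lower. MiR-615-5p had 16.99, 17.02 and 17.4 RPM in Control and 11.7, 5.81 and 4.16 RPM in TGF-b1. The Control samples were nearly equal (CV 1.39%), and the TGF-b1 samples spread over 2.82-fold (CV 54.9%), with replicate 1 the highest. The log2 change was -1.25 ± 0.30 (SE; limma adjusted p = 0.00993). Without TGF-b1 replicate 1 it was -1.62, and without TGF-b1 replicate 3 it was -0.96. MiR-615-3p had 6.25, 7.73 and 5.67 RPM in Control and 4.16, 2.46 and 3.34 RPM in TGF-b1, with no overlap, and its change was -0.82 ± 0.19 (SE) on the log2 scale at a limma adjusted p of 0.00872.

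The remaining 3p strands, which are usually the less kept arms, gave a mixed picture. MiR-196b-3p had 8.62, 8.99 and 8.45 RPM in Control and 5.80, 5.36 and 5.79 RPM in TGF-b1, and it changed by -0.54 ± 0.12 (SE) on the log2 scale at a limma adjusted p of 0.0080. The groups did not overlap, and the adjusted p was 0.0538 with median-of-ratios scaling and 0.185 with DESeq2. MiR-10a-3p had 28.3, 28.8 and 26.3 RPM in Control and 25.7, 18.8 and 19.0 RPM in TGF-b1, with a log2 change of -0.39 ± 0.15 (SE) and a limma adjusted p of 0.0627. MiR-196a-2-3p had 2.18, 1.92 and 1.82 RPM in Control and 1.69, 1.12 and 1.11 RPM in TGF-b1, with a log2 change of -0.37 ± 0.14 (SE) and the same limma adjusted p of 0.0627. Neither passed the test, although neither overlapped in RPM of the library total. Per read of the listed miRNAs the groups overlapped for each. Under TMM, median-of-ratios, upper-quartile and row-sum scaling, miR-10a-3p changed by -0.26 to -0.19 (limma adjusted p 0.156 to 0.326). MiR-196a-2-3p changed by -0.32 to -0.24 under these scalings (limma adjusted p 0.128 to 0.214). TGF-b1 replicate 1 was the sample nearest to Control in both, and without it the log2 changes were -0.54 and -0.49 with limma adjusted p of 0.0134 and 0.0266.

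MiR-196a-1-3p, the 3p arm of the HoxB hairpin of miR-196a, did not pass the test, and its values in the groups overlapped. Its level was 18.1, 19.4 and 16.4 RPM in Control and 18.5, 19.5 and 14.9 RPM in TGF-b1, with a TGF-b1 sample at each end of the range. The log2 change was -0.03 ± 0.15 (SE; limma adjusted p = 0.873) with a 95% interval of -0.37 to 0.31, and its sign turned with TMM, median-of-ratios, upper-quartile and row-sum scaling and with DESeq2 (0.10 to 0.20).

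The least abundant strand was miR-10b-3p, with 16, 13 and 20 reads in Control and 13, 3 and 2 reads in TGF-b1, or 0.971, 0.779 and 1.13 RPM against 0.645, 0.168 and 0.117 RPM. TGF-b1 replicate 1 held 13 of the 18 treated reads, and miR-10b-3p passed the filter through the Control samples. The log2 change on the log2(RPM + 1) scale was -0.60 ± 0.17 (SE). Its limma adjusted p of 0.0208 is no independent support for the direction, since the filter kept this strand for its Control values. As a ratio of pooled reads, TGF-b1 held 0.338 of the Control level (95% counting interval 0.185 to 0.591, which covers counting error only). The adjusted p was 0.0562 with edgeR and TMM and 0.156 with DESeq2, and with limma it was 0.0583 without Control replicate 1, 0.0506 without Control replicate 3, 0.0703 without TGF-b1 replicate 2 and 0.0643 without TGF-b1 replicate 3.

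**Figure D3:**
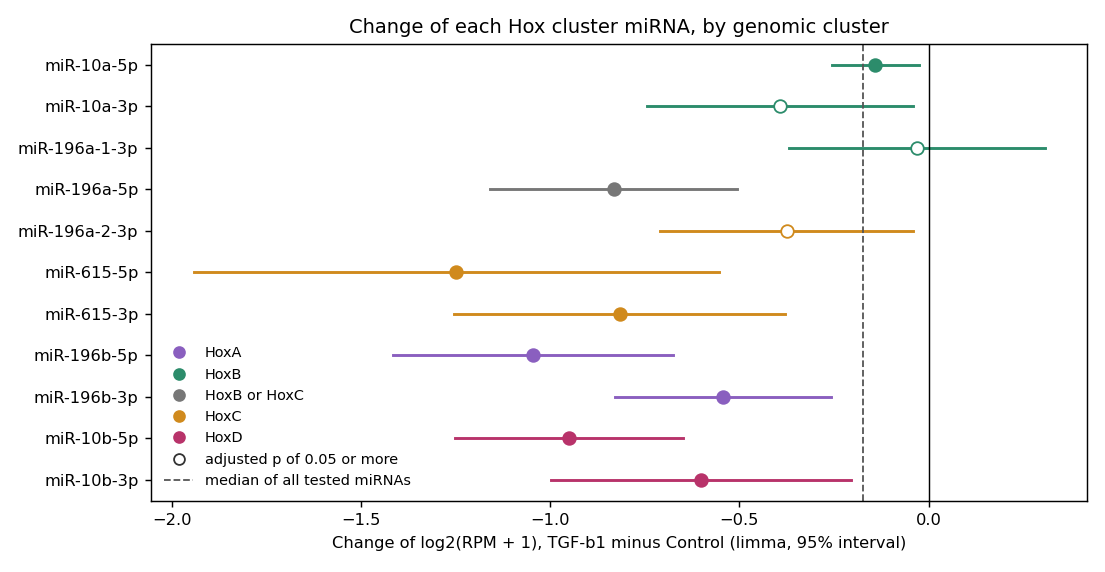
Change of log2(RPM + 1) from Control to TGF-b1 for each of the 11 miRNAs with its 95% interval from limma, coloured by Hox cluster, filled where the adjusted p was under 0.05. The HoxB strands miR-10a-5p and miR-196a-1-3p lie near the dashed median of all tested miRNAs (-0.17), and their signs turn with other scalings. The HoxB strand miR-10a-3p (-0.39) and the strands of HoxA, HoxC and HoxD lie below that median. So does miR-196a-5p (-0.83), which comes from HoxB, HoxC or both.

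Grouped by genomic cluster, 1 of 3 HoxB strands was lower, with a median log2 change of -0.14, and that call was of miR-10a-5p, whose sign turns with scaling. In HoxC 2 of 3 were lower with a median of -0.82, in HoxA 2 of 2 with a median of -0.79, and in HoxD 2 of 2 with a median of -0.78, where 31.9% of all tested miRNAs were lower. One of the HoxD strands is miR-10b-3p, kept by the filter for its Control values. The HoxA call of miR-196b-3p was lost with median-of-ratios scaling and with DESeq2. MiR-196a-5p belongs to HoxB, HoxC or both, because 2 hairpins give the same strand. Its log2 change of -0.83 is therefore in none of these counts. The clusters hold only 1 or 2 hairpins each, and the difference between clusters was not tested.

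Ratios of RPM between strands of a sample are free of its scaling, but the tests used log2(RPM + 1), where the added 1 shrinks ratios of scarce strands. MiR-10b-5p was 1.89, 1.99 and 1.91% of miR-10a-5p in the Control samples and 0.951, 1.05 and 1.33% in the TGF-b1 samples. The log2 ratio differed by -0.81 ± 0.14 (SE, n = 3 each) with no overlap, and its p in an exact two-sided permutation test was 0.1, which 3 against 3 samples cannot go below. The p was also 0.1 after adjustment over 2 such ratios. The share of miR-10a-5p reads counted as miR-10b-5p was not tested, and in TGF-b1 replicate 1 it cannot exceed the ratio there, 0.951%. For the 3p arms, miR-10b-3p was 3.43, 2.70 and 4.32% of miR-10a-3p in Control and 2.51, 0.893 and 0.617% in TGF-b1, the last values resting on 3 and 2 reads of miR-10b-3p.

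Within the miR-196 family, miR-196b-5p was 31.2, 33.4 and 30.5% of miR-196a-5p in Control and 25.0, 30.02 and 25.8% in TGF-b1. The log2 ratio differed by -0.21 ± 0.087 (SE, n = 3 each; exact two-sided permutation p = 0.1), with the nearest samples close to each other, and by -0.06 with a pseudocount of 10. The ratio of miR-196a-1-3p to miR-196a-2-3p, examined after the values were seen, compares the HoxB with the HoxC hairpin. It was 8.31, 10.1 and 9.03 in Control and 10.97, 17.5 and 13.4 in TGF-b1, with no overlap and a log2 difference of 0.34 ± 0.15 (SE, n = 3 each; exact two-sided permutation p = 0.1). That difference was 0.21 without TGF-b1 replicate 2, 0.55 with a pseudocount of 0.1 and 0.06 with a pseudocount of 10. The ratio rests on few reads of miR-196a-2-3p, 36, 32 and 32 in Control and 34, 20 and 19 in TGF-b1. The 2 miR-196a 3p strands together were 11.8, 14.0 and 13.4% of miR-196a-5p in the Control samples and 26.4, 25.4 and 16.0% in the TGF-b1 samples, without overlap.

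Between the families, the summed miR-10 5p strands were 59.2, 66.3 and 69.6 times the summed miR-196 5p strands in Control and 122.5, 113.9 and 91.2 times in TGF-b1. The means were 65.0 ± 5.28 and 109.2 ± 16.2 (SD, n = 3 each), and the groups did not overlap.

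**Figure D4:**
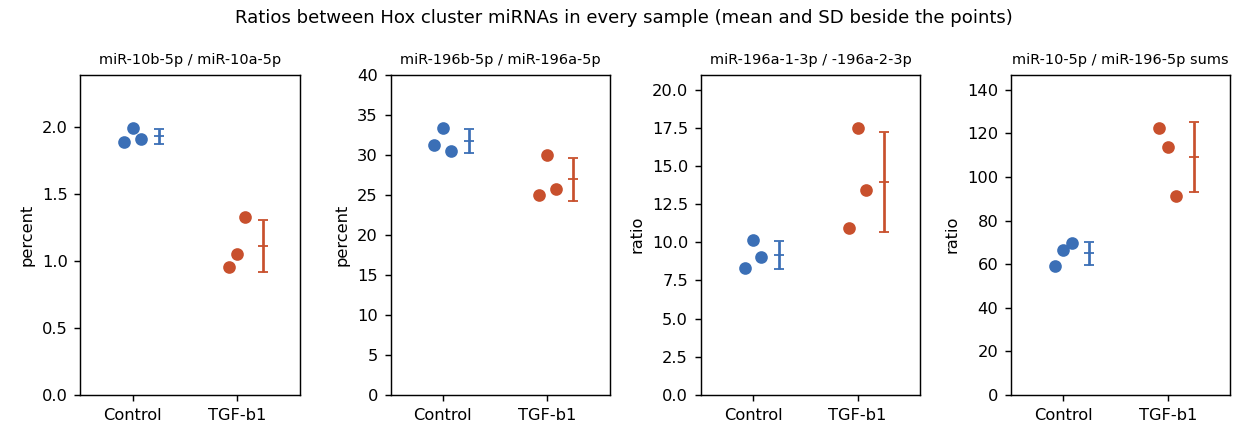
Ratios between Hox cluster miRNAs in each sample, with the group mean and SD beside the points and every vertical axis starting at 0. MiR-10b-5p relative to miR-10a-5p and miR-196b-5p relative to miR-196a-5p are lower in all 3 TGF-b1 samples, and the other ratios are higher in all 3.

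The arms of a hairpin come from the same transcript, so their ratio shows whether both moved alike. Over 84 hairpins with both arms measured, limma on the log2 ratio of 3p to 5p gave a difference of 0.50 ± 0.22 for miR-196b (SE; adjusted p = 0.0989, 95% interval 0.02 to 0.98). For miR-615 it was 0.43 ± 0.27 (SE; limma adjusted p = 0.259), or 0.66 without TGF-b1 replicate 1 and 0.14 without TGF-b1 replicate 3. For miR-10a it was -0.25 ± 0.22 (SE; limma adjusted p = 0.392), or -0.40 without TGF-b1 replicate 1 and -0.16 without TGF-b1 replicate 2. None passed at the planned pseudocount, and with a pseudocount of 10 only miR-196b did, at 0.57 (limma adjusted p = 0.0111). The hairpin of miR-10b was not tested because its 3p arm was below 1 RPM on average. Neither were the miR-196a hairpins, whose shared 5p strand is listed once for both, and their summed 3p share is given above.

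The wider miR-10 family includes miR-99a, miR-99b and miR-100, which lie outside the Hox clusters and share the seed ACCCGUA among themselves, shown here for comparison with that of miR-10 (RefSeq, GRCm38.p6).
mmu-miR-99a-5p: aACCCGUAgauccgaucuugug
mmu-miR-99b-5p: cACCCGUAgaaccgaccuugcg
mmu-miR-100-5p: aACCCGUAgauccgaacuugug
Of their 6 strands, 3 were lower by limma, with a median log2 change of -0.30, and none was higher at an unadjusted p under 0.05 with limma, edgeR or DESeq2. The 3 calls depended on the scaling to the library total: 0 were lower with TMM, median-of-ratios, upper-quartile or row-sum scaling, or with DESeq2, and 1 or 2 with a sample left out. Of all tested miRNAs 31.9% were lower and 17.4% higher at a limma adjusted p under 0.05, with a median of -0.17. At an unadjusted limma p under 0.05, 78 of all 408 were higher. MiR-99a-5p changed by -0.36 ± 0.09 (SE; limma adjusted p = 0.0106), miR-100-5p by -0.33 ± 0.11 (SE; limma adjusted p = 0.0318) and miR-99b-3p by -0.40 ± 0.13 (SE; limma adjusted p = 0.0367). MiR-99b-5p, the most abundant of them had 2363, 2481 and 2200 RPM in Control and 2138, 2117 and 2539 RPM in TGF-b1, which overlap. The 3 changes that passed lay between that of miR-10a-5p, whose sign turns with scaling, and that of miR-10b-5p.

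Outside the families, the profiles most like each strand were ranked by the root mean square difference of centred log2(RPM + 1) values over the 6 samples. MiR-10a-5p lay closest to miR-152-3p (0.0375), and miR-10b-5p closest to miR-181d-5p (0.103). MiR-196a-5p lay closest to miR-15b-5p (0.0879) and miR-16-5p (0.0998), and miR-196b-5p again to miR-181d-5p (0.151). MiR-196a-1-3p lay closest to miR-324-5p (0.0564). MiR-615-5p had no close partner, its nearest being miR-101b-3p at 0.239.

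The target site best known for miR-196, in the 3′ untranslated region of Hoxb8, is shown because its pairing is nearly complete. It lies at bases 2208 to 2229 of the Hoxb8-001 transcript (GENCODE vM1).
Hoxb8 site: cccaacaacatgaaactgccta
All 22 bases pair with miR-196a-5p, 21 by Watson-Crick pairs and 1 by a G:U pair, and with miR-196b-5p there are 20 Watson-Crick pairs and 1 G:U pair. Sites that pair as fully with miR-196a-5p were found in 3 of 22611 genes scanned, Hoxb7, Hoxb8 and Rps6ka2. The gene models of Hoxb7 and Hoxb8 overlap on the same strand, and whether their sites are 1 place in the genome was not checked. The level of the Hoxb8 mRNA was not analysed here.

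Setting the scalings side by side showed which changes depended on them. The 5p strands miR-10b-5p, miR-196a-5p and miR-196b-5p and both arms of miR-615 stayed below 0 throughout, while miR-10a-5p and miR-196a-1-3p crossed it.

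**Figure D5:**
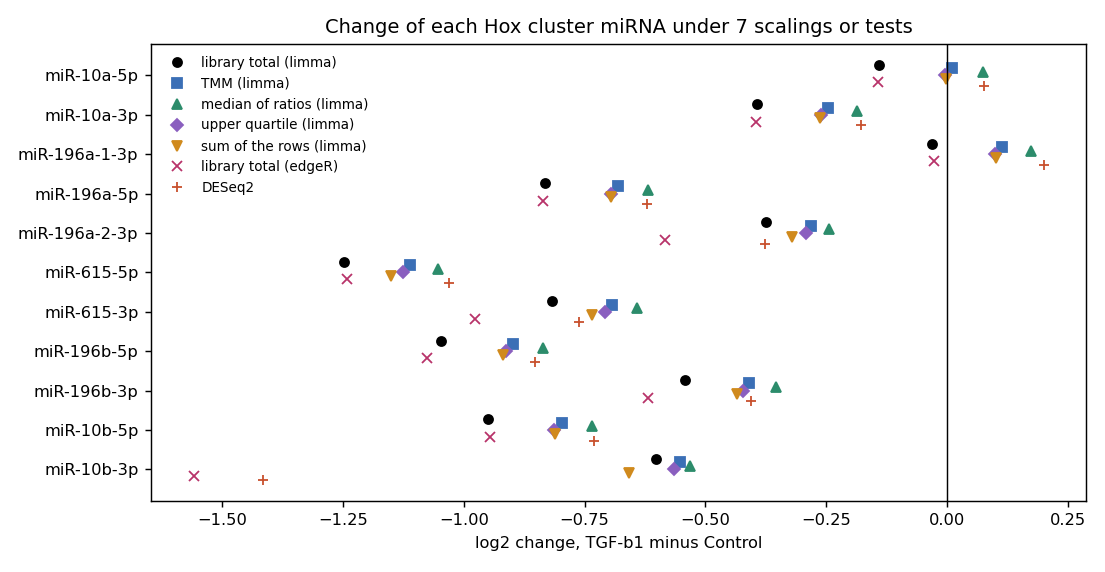
Log2 change of each of the 11 miRNAs from Control to TGF-b1 under 7 combinations of scaling and test, 1 marker each. Markers of miR-10a-5p and miR-196a-1-3p fall on both sides of 0, and those of the other 9 stay below it.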

How the data were processed

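Small RNA of 3 Control and 3 TGF-b1 samples of primary mesangial cells was sequenced on an Illumina instrument. The authors deposited 778 mature miRNAs in a unit they call TPM, which is RPM (reads per 1000000 of the library total) with no scaling by length. Bowtie is named in the submitters' processing notes, and the treatment of multiply matching reads is not given in the sources used here. Whole reads were recovered from the deposited RPM for 100% of values within a tolerance of 0.002, and 1 read was worth 0.0496 to 0.0607 RPM. The interval of pooled reads covers counting error only, while limma intervals come from the spread between samples.

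After filterByExpr of edgeR 4.0.16 (minimum count 10) 408 miRNAs remained, and log2(RPM + 1) was fitted with limma 3.58.1 in R 4.3.3, using a trended prior and group alone. P-values were adjusted by Benjamini-Hochberg, and called means an adjusted p under 0.05. Ratios were compared by exact two-sided permutation (scipy 1.17.1). The alternatives changed the scaling (TMM, upper quartile, median of ratios, row sums), the filter (none, or a mean of 50 reads or more), the pseudocount (0.1 or 10), the call (also a log2 change beyond 1) and the test (edgeR, DESeq2 1.42.0, a replicate block), and left out each sample in turn. Within groups no 2 samples agreed within sampling noise.

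Named miRNAs were the members, miR-99a, miR-99b and miR-100, and for each member the nearest profiles. The members, lists and tests were chosen with earlier results of these data known.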

Additional observations from a re-analysis of the deposited data

How the results depend on the processing

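The change of miR-10a-5p turned positive with TMM (0.011), median-of-ratios scaling (0.074), edgeR with TMM (0.013) and DESeq2 (0.078). That of miR-196a-1-3p turned positive with TMM (0.11), median of ratios (0.17), upper quartile (0.10), row sums (0.10), edgeR with TMM (0.13) and DESeq2 (0.20), and lay between -0.10 and 0.079 with 1 sample left out. The causes were not tested. Of 11 members, DESeq2 called 5 lower and a log2 change beyond 1 left 2; over all miRNAs these were 72 and 32 lower, and 18 were higher beyond 1. Leaving out 1 sample gave 6 to 9 members lower, or 6 to 8 without miR-10b-3p, against 23.3 to 33.4% of all tested. All were highest without TGF-b1 replicate 1. The log2 arm ratio of miR-196b was 0.57 with a pseudocount of 10. Per 1000000 listed reads the members summed to 16780 in Control and 16480 in TGF-b1. Samples with the same replicate number did not deviate together (correlations of -0.08, -0.21 and -0.34). With the replicate block 7 members were lower, or 6 without miR-10b-3p, against 28.2% of all tested, and miR-10a-5p had a limma adjusted p of 0.0649. The fold of miR-10b-3p, with 2 to 20 reads per sample, and of miR-196a-2-3p is limited by depth and by the pseudocount: from group means their log2 ratios were -1.63 and -0.60, chosen after seeing the data. With a pseudocount of 10 the changes of miR-615-5p, miR-615-3p and miR-196b-3p were -0.68, -0.31 and -0.26, each still called.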
